A study of Mus musculus with 28 samples.

Results

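The pore-forming alpha-1 subunits of voltage-gated calcium channels are encoded by a small gene family, and 8 of its genes were followed in sorted nuclei of mouse motor cortex. They are Cacna1a, Cacna1b, Cacna1c, Cacna1d, Cacna1e, Cacna1g, Cacna1h and Cacna1i, chosen by gene symbol, and they are 8 of the 41549 genes in the count tables. The nuclei came from 7 mice, numbered 17 to 23, and each animal had received 2 vectors based on an adeno-associated virus (AAV), AAV-Cas9-miR-124-empty in the left and AAV-Cas9-miR-124-g4 in the right motor cortex. The vectors are called empty and g4 here, and an effect of the vector cannot be told apart from one of the hemisphere. Nuclei of fixed tissue were sorted by an antibody against the HA tag into HA-positive nuclei, listed as Cas9 positive, and HA-negative nuclei. With 2 vectors and 2 fractions this gave 4 groups of 7 libraries, 28 in all. All 4 groups thus came from cortex injected with a Cas9 vector, none from an uninjected animal, and the sources used here give no strain, age, promoter or time after injection.

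An alpha-1 subunit forms the calcium-selective pore and the voltage sensor, while auxiliary alpha-2-delta and beta subunits govern its transport to the membrane and its gating. Cacna1c and Cacna1d encode the L-type channels Cav1.2 and Cav1.3, which couple calcium entry in cell bodies and dendrites to gene transcription. Cacna1a (P/Q-type), Cacna1b (N-type) and Cacna1e (R-type) encode the Cav2 channels, of which the P/Q and N types trigger transmitter release at central synapses, and Cacna1g, Cacna1h and Cacna1i encode the low-voltage activated T-type channels that shape burst firing.

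Since both vectors carry the name of the microRNA miR-124, the longest annotated 3′ UTR of each alpha-1 gene was searched on the transcript strand for the letters GTGCCTT and TGCCTTA, which pair with the miR-124 seed and overlap where both are present. Of the 8 genes, 2 held 1 match each, to GTGCCTT, and 6 held none. The windows below (GRCm38, minus strand, 5′ to 3′) show those matches in capitals with the bases around them. The Cacna1c window is chr6:118590329-118590358 and the Cacna1e window is chr1:154392827-154392856.
Cacna1c: accctcctctgGTGCCTTggttccaaattc
Cacna1e: acaactcatctGTGCCTTcagtatggatat
These genes also have the longest 3′ UTRs of the 8, with 6652 bases in Cacna1c and 7662 bases in Cacna1e, against 538 to 2683 bases in the others. Of all 21037 annotated 3′ UTRs, 19.7% held a match to either sequence, and of those within 10% of the same length 59.6% did for Cacna1c and 67.9% for Cacna1e. A match is a description of the letters and not a measured site.

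The genes lie on 8 chromosomes of GRCm38. The L-type genes span 609 kb (Cacna1c, chr6:118587240-119196418, minus strand) and 452 kb (Cacna1d, chr14:30039939-30491455, minus strand). The Cav2 genes span 252 kb (Cacna1a, chr8:84388440-84640246, plus strand), 159 kb (Cacna1b, chr2:24603887-24763152, minus strand) and 494 kb (Cacna1e, chr1:154390731-154884501, minus strand). The T-type genes are shorter, with 65.8 kb (Cacna1g, chr11:94408391-94474198, minus strand), 59.5 kb (Cacna1h, chr17:25374285-25433783, minus strand) and 111.0 kb (Cacna1i, chr15:80287238-80398279, plus strand). Counts of Cacna1a, Cacna1d and Cacna1h could include reads of genes on the other strand, because Gm16183 overlaps 435 exon bases of Cacna1a, Chdh overlaps 589 exon bases of Cacna1d and Tpsg1 overlaps 158 exon bases of Cacna1h, and the sources used here do not say whether counting used strand. Chdh had 0 to 19 counts summed over a group, Gm16183 had 0 to 1 and Tpsg1 had 0.

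Library totals lay between 248612 and 902944 counts, with 8687 to 13668 genes detected. Of the HA-positive libraries, 4 detected fewer than 10000 genes (empty of animals 17, 21 and 22, and g4 of animal 18). Animal 19's g4 HA-positive library had counts of both Xist (591) and Y-linked genes (44), and the highest summed level of oligodendrocyte markers among HA-positive libraries (1219 CPM, against 38.2 to 184 in the other 13). The empty HA-negative library of animal 22 also had counts of both, 517 of Xist and 2 of Y-linked genes, and in the other libraries 1 of them was at 0. Markers of excitatory neurons, which the labelled tissue holds, were present in all libraries, with summed levels of 872 to 2230 CPM. They were lower on average in HA-positive nuclei, with sums of 1359 ± 313 against 1887.5 ± 269 CPM with the empty and 1606 ± 220 against 1888 ± 270 CPM with the g4 vector (SD, n = 7). By edgeR 2 of the 10 fell with each vector, where 7.01% (empty) and 6.4% (g4) of all genes tested were called. The other 8 were not called. Of the 10 log2 changes 1 (empty) and 3 (g4) were above 0, with medians of -0.67 and -0.17. Those that fell were Foxp2, with log2 changes of -3.53 (empty, adjusted p = 0.000564) and -2.64 (g4, adjusted p = 0.00194), and Bcl11b, with adjusted p-values of 0.000836 and 0.0105. Which cells the falls of these 2 genes came from was not tested. Foxp2 failed the filter on low counts between the HA-positive groups and passed it between the HA-negative ones. Other marker lists also moved between the fractions. The 10 inhibitory neuron markers, 9 of them in the tables, summed to 617 to 986 CPM in HA-negative and 1402 to 3551 CPM in HA-positive libraries. The 8 striatal projection neuron markers summed to 260 to 2190 CPM in HA-negative and 87.96 to 551 CPM in HA-positive libraries, and the 7 oligodendrocyte markers to 965 to 2156 and 38.2 to 1219 CPM; the ranges of these last lists overlap. The microglia markers Cx3cr1 and P2ry12 and the striatal marker Adora2a had no count in the empty HA-positive group.

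Levels of the alpha-1 genes are given as CPM, counts relative to the library total scaled by the trimmed mean of M-values (TMM), over 7 libraries per group. The 8 genes summed to 1112.5 ± 94.4 CPM (SD, n = 7) in empty HA-negative, 1017 ± 71.5 in g4 HA-negative, 956 ± 475 in empty HA-positive and 844 ± 130 in g4 HA-positive nuclei. Between 154 and 1014 counts per library lay behind these sums. Of the remaining genes of the family, Cacna1f, known from the retina, had 0 counts in all 28 libraries, out of group totals of 2959946 to 4036663. With 0 counts seen, an expected count of up to about 3 per group remains possible at the 95% level under Poisson sampling. Cacna1s, the skeletal muscle L-type gene, had 3 to 5 counts per group.

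**Figure D1:**
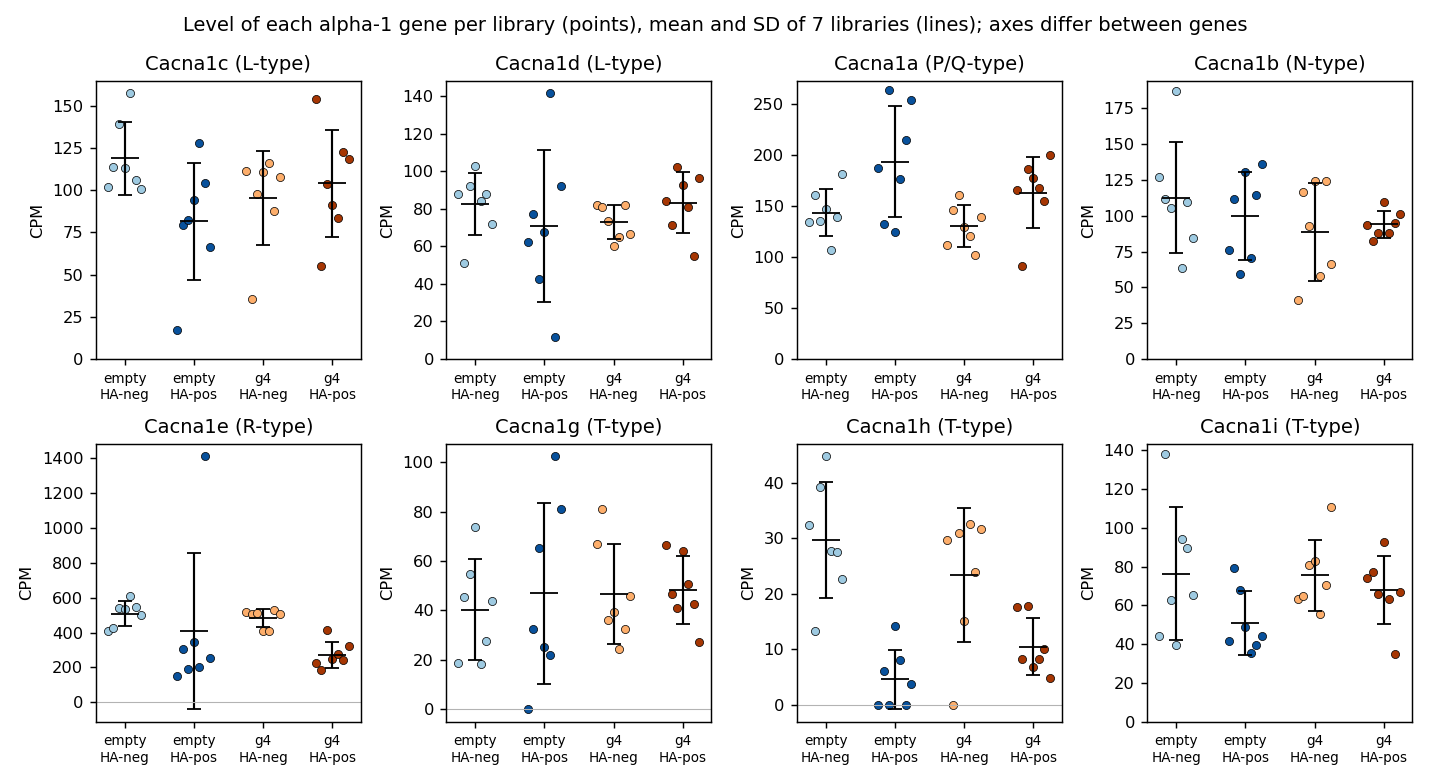
CPM of each alpha-1 gene (vertical axis, a different range for each gene) in the 4 groups. Points are libraries in the order of the animal numbers, lines are the mean and SD of 7 libraries. Cacna1e and Cacna1h are lower on average in HA-positive than in HA-negative libraries, with overlapping groups; 1 empty HA-positive library stands apart with 1411 CPM of Cacna1e.

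Cacna1e and Cacna1a had the highest mean levels in all 4 groups. Per kilobase of exon sequence, Cacna1e was first in both HA-negative groups, with 20.2 ± 2.82 CPM per kilobase with the empty and 19.2 ± 2.12 with the g4 vector. Cacna1a followed with 12.6 ± 2.03 and 11.4 ± 1.81, and was below Cacna1e in 7 of 7 libraries of each of these groups. In HA-positive nuclei Cacna1a had the higher mean, with 16.9 ± 4.78 CPM per kilobase with the empty and 14.3 ± 3.08 with the g4 vector, and Cacna1e was second, with 16.2 ± 17.7 and 10.8 ± 2.97. Cacna1a was the higher of the pair in 4 of 7 empty and 6 of 7 g4 HA-positive libraries. The empty HA-positive mean of Cacna1e rested on the library of animal 22, with 55.9 CPM per kilobase against 5.92 to 13.6 in the others. By mean, Cacna1b came next in all 4 groups, with 8.96 to 11.3 CPM per kilobase. In empty HA-positive nuclei Cacna1e was above Cacna1b in 5 of 7 libraries. Cacna1i, Cacna1d, Cacna1c and Cacna1g followed in varying order between 3.86 and 7.73, and Cacna1h was last everywhere, with 0.470 to 3.03.

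No neighbours in these orders passed the test. In an exact two-sided sign-flip permutation test over the 7 libraries of a group, with adjustment over 28 neighbouring pairs, 0 pairs reached 0.05. The smallest p that 7 libraries allow, 0.0156, was reached by 6 pairs and became 0.0729 after adjustment. A pair with the same order in 7 of 7 libraries could thus not pass by itself, and the test cannot decide single pairs. The 6 pairs were Cacna1e over Cacna1a in both HA-negative groups, Cacna1c over Cacna1h in g4 HA-negative and empty HA-positive, and Cacna1b over Cacna1i and Cacna1g over Cacna1h in g4 HA-positive nuclei. With the longest transcript in place of all exons as the length, Cacna1e and not Cacna1a was first in empty HA-positive nuclei. That order is by group means, and the mean of Cacna1e includes the high library of animal 22.

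As shares of the summed CPM per kilobase, the Cav2 genes held most of the family in every group, with 62.1% ± 3.04 (empty HA-negative), 61.2% ± 4.03 (g4 HA-negative), 67.3% ± 8.36 (empty HA-positive) and 58.6% ± 4.92 (g4 HA-positive; SD, n = 7). The T-type genes held 16.4% to 22.7% and the L-type genes 16.1% to 19.5% on average. Within the Cav2 class, Cacna1e had mean shares of 28.5% ± 3.83 and 29.8% ± 2.46 in HA-negative and 22.2% ± 14.0 and 18.3% ± 3.46 in HA-positive nuclei (empty and g4). Cacna1a had 17.8% ± 3.17 and 17.7% ± 2.36 against 28.5% ± 9.78 and 24.1% ± 3.21. In empty HA-positive nuclei the share of Cacna1e ran from 13.3% to 52.7%, the highest in the library of animal 22. The same library had the highest Cav2 share of that group, 81.2%. A share of one gene is not independent of the others, since the shares add up to the whole.

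**Figure D2:**
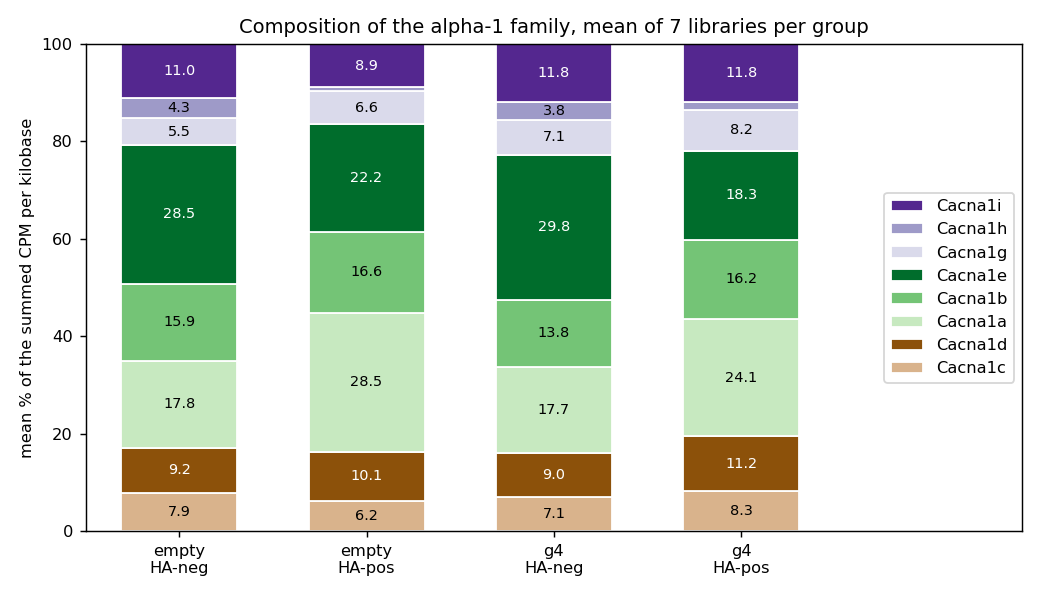
Mean share of each alpha-1 gene in the summed CPM per kilobase (vertical axis, percent) of the 4 groups, 7 libraries each. The green blocks are the Cav2 genes. Cacna1e holds 28.5% and 29.8% in HA-negative groups and 22.2% and 18.3% in HA-positive groups. The 22.2% (SD 14.0) is of the empty HA-positive group and includes the library of animal 22 with 52.7%.

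The first comparison asks whether HA-positive nuclei, listed as Cas9 positive, differed from the HA-negative nuclei of the same hemisphere. Cacna1e was lower in HA-positive nuclei with g4. Cacna1h had lower means in HA-positive nuclei with both vectors, but was not among the genes tested here. The other genes did not pass the test within a single vector. By edgeR's quasi-likelihood test, 1 of the 7 alpha-1 genes tested was called with g4, where 6.4% of 6264 genes were, and 0 of 7 with the empty vector, where 7.01% of 5538 genes were. The median log2 change of the 7 tested was 0.10 with g4 and -0.22 with the empty vector, against 0.01 over all genes tested in each. Cacna1h had too few counts for the filter on low counts in both. Without the filter edgeR gave it adjusted p-values of 0.00525 with the empty vector and 0.195 with g4. Its permutation tests below were adjusted over 3 tests of this gene and not over all genes. In bulk nuclei, fewer cells of a type and less RNA per cell cannot be told apart, and the marker lists above moved with the fraction; their part in the results was not tested.

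Cacna1e, the R-type gene, had 406 to 532 CPM (median 506) in g4 HA-negative and 184 to 413 CPM (median 248) in g4 HA-positive libraries. The groups overlapped only through the HA-positive library of animal 19 (413 CPM), and the HA-positive value was the lower of the pair in 7 of 7 animals. Cacna1e fell by 0.82 on the log2 scale (SE 0.14, 95% interval -1.10 to -0.54), with an adjusted p of 0.000136 by edgeR. It was called under all 14 alternatives run, with log2 changes of -0.96 to -0.74 and adjusted p-values of 6.1e-07 to 0.00279, and it fell by 0.96 (adjusted p = 1.25e-06) without the doubted library of animal 19.

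With the empty vector, 1 library decided the result for Cacna1e. The empty HA-negative libraries held 407 to 607 CPM (median 537), and 6 of the 7 empty HA-positive libraries held 149 to 343 CPM, all below the lowest HA-negative one. The library of animal 22 held 1411 CPM, from 716 counts, which was 6.20 times the median of the other 6. Over all 7 libraries the log2 change was -0.29 ± 0.46 (SE, 95% interval -1.29 to 0.72, adjusted p = 0.804 by edgeR), and -0.74 with the animal as a block (adjusted p = 0.351). Without that library Cacna1e fell by 1.06 on the log2 scale. The library was left out after its Cacna1e value had been seen, so this is a description and not a test. In the planned omission of each animal, leaving out animal 22 in both fractions gave a fall of 1.05 (adjusted p = 0.000125). Leaving out the 3 empty HA-positive libraries with fewer than 10000 genes, animal 22 among them, gave -0.89 (adjusted p = 6.47e-05). DESeq2, which replaces outlying counts at this number of replicates, gave -0.94 (adjusted p = 2.48e-05).

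The high value of animal 22 was not shared by the g4 HA-positive library of the same animal, with 245 CPM, nor by its HA-negative libraries, with 546 (empty) and 532 CPM (g4). In the same library Cacna1d, the Cav1.3 gene, had 11.8 CPM from 6 counts, the lowest of the 28, and Cacna1h had 0 counts. Of 2863 genes with a mean of at least 50 CPM, 26 (0.908%) were at least 3 times above the median of the other empty HA-positive libraries there. In the other 13 HA-positive libraries 0 to 38 genes were, the most in the empty library of animal 21. The difference between the vectors in the fraction effect on Cacna1e was -0.52 ± 0.49 (SE, adjusted p = 0.996), and 0.25 without the library of animal 22.

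**Figure D3:**
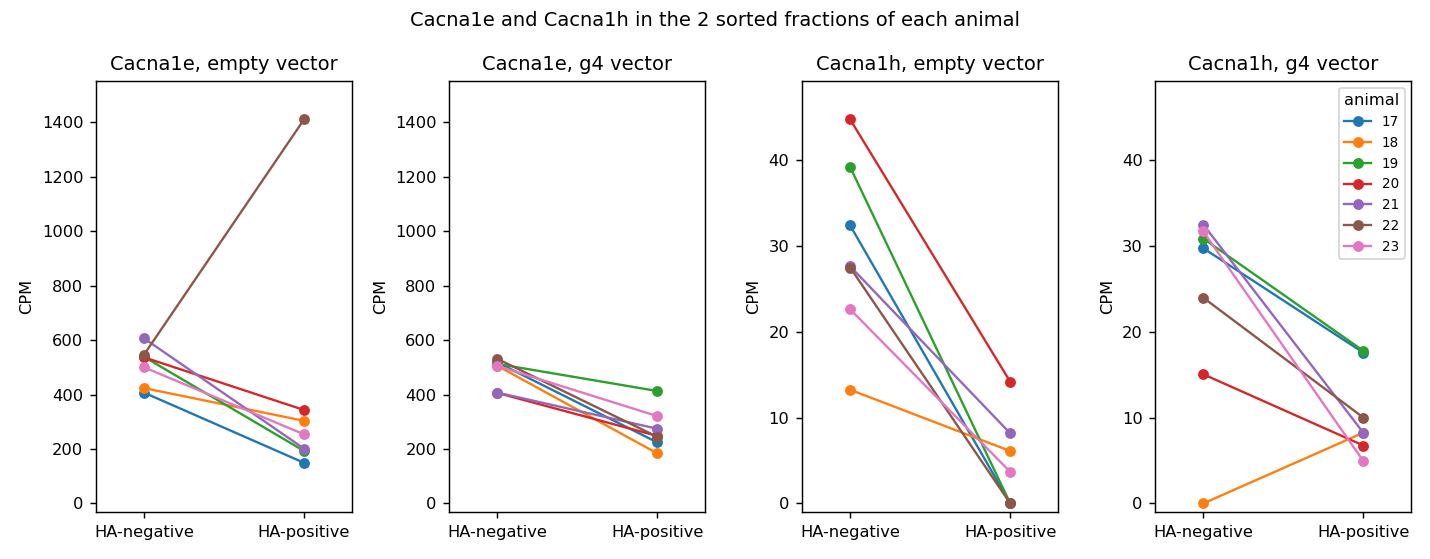
CPM of Cacna1e (left pair of panels) and Cacna1h (right pair) in HA-negative and HA-positive libraries; each line joins the 2 fractions of 1 animal. Cacna1e is lower in HA-positive libraries of 7 of 7 animals with g4 and 6 of 7 with empty, and Cacna1h of 6 of 7 and 7 of 7.

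Cacna1h, the Cav3.2 T-type gene, was the rarest of the 8 and stood lower in HA-positive nuclei. With the empty vector it had 13.2 to 44.7 CPM (median 27.6) in HA-negative libraries, from 115 counts in all, and 0 to 14.2 CPM (median 3.68) in HA-positive ones, from 16 counts, with 3 libraries at 0. The groups overlapped at 1 value each, and the HA-positive value was lower in 7 of 7 animals. The group means were 29.6 ± 10.4 and 4.59 ± 5.34 CPM (SD, n = 7), a ratio of 6.45, with an exact two-sided permutation p of 0.00117 (0.0035 adjusted over the 3 tests of this gene). These 3 tests took the libraries as unpaired, although the fractions and vectors share animals. edgeR without the filter gave -2.51 ± 0.64 (SE), with an adjusted p of 0.00525, and called 3.72% of 17753 genes.

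With g4, Cacna1h had 0 to 32.5 CPM (median 29.7) in HA-negative libraries, from 103 counts, and 4.94 to 17.8 CPM (median 8.25) in HA-positive ones, from 45 counts. The groups overlapped through the HA-negative libraries of animals 18 (0 CPM) and 20 (15.1 CPM), and 6 of 7 animals had the lower value in HA-positive nuclei. The means were 23.4 ± 12.0 and 10.5 ± 5.14 CPM (SD, n = 7), a ratio of 2.23, with an exact permutation p of 0.0256 (0.0385 adjusted over the 3 tests), and of 0.0245 without the HA-positive library of animal 19. edgeR without the filter did not call it (-1.15 ± 0.48, adjusted p = 0.195), in a fit that called 3% of 18208 genes. The fraction effect of Cacna1h differed by 1.34 ± 0.78 (SE, 95% interval -0.23 to 2.90) between the vectors, and this did not pass the test (adjusted p = 0.996).

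Cacna1a, the P/Q-type gene, was on average higher in HA-positive nuclei with both vectors. Empty libraries held 107 to 181 CPM (median 139) in HA-negative and 124 to 264 CPM (median 188) in HA-positive nuclei, and g4 libraries held 102 to 161 (median 130) and 90.7 to 199.97 CPM (median 167). The groups overlapped with both vectors, and the HA-positive value was higher in 5 of 7 animals with the empty and 6 of 7 with the g4 vector. The log2 changes of 0.43 ± 0.19 (adjusted p = 0.187) and 0.34 ± 0.16 (SE, adjusted p = 0.261) did not pass the test on their own.

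The mean of both fraction effects, fitted by edgeR in 1 model of all 28 libraries, was added after the values had been seen. The model took the 28 libraries as independent, although they come from 7 animals. It called 13.7% of 7197 genes, and 2 of the 8 alpha-1 genes. Cacna1a rose by 0.37 ± 0.12 (SE, 95% interval 0.13 to 0.62, adjusted p = 0.0311), and the call was lost without animal 17, 19, 21, 22 or 23, with adjusted p-values of 0.0749 to 0.112. Cacna1h fell by 1.81 (SE 0.39, adjusted p = 0.000506) and was called under all 11 alternatives run, with adjusted p-values of 0.000129 to 0.00461. It failed the filter on low counts between the HA-positive groups and passed it between the HA-negative ones, where it was higher. A fall was thus favoured by the way it entered this fit, and all 11 alternatives share that filter. Cacna1e had -0.56 ± 0.25 (adjusted p = 0.147), or -0.70 with the animal as a block (adjusted p = 0.0502). Without the empty HA-positive library of animal 22 it fell by 0.95. That library was left out after its Cacna1e value had been seen, so this is a description and not a test.

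The other 5 genes were not called in any of these fraction comparisons. Cacna1c, the Cav1.2 gene, had a lower value in the HA-positive library of 7 of 7 animals with the empty vector (101 to 158 CPM against 17.4 to 128), with a log2 change of -0.51 ± 0.25 (adjusted p = 0.268). With g4 it was higher in 5 of 7 animals (35.7 to 116 CPM against 55.0 to 154), with a change of 0.10 ± 0.21 (adjusted p = 0.871). Cacna1i, the Cav3.3 gene, had 76.3 ± 34.3 CPM in HA-negative and 51.0 ± 16.4 in HA-positive nuclei with the empty vector (-0.57 ± 0.29, adjusted p = 0.279), and 75.5 ± 18.4 and 67.8 ± 17.6 with g4 (-0.16 ± 0.22, adjusted p = 0.795).

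Cacna1b, the N-type gene, kept to a narrow range of means, from 89.1 ± 34.2 CPM in g4 HA-negative to 113 ± 38.8 CPM in empty HA-negative nuclei. Its changes between fractions were -0.14 ± 0.24 (empty, 95% interval -0.62 to 0.35) and 0.09 ± 0.21 (g4, 95% interval -0.35 to 0.52). Cacna1d had 70.8 ± 40.5 to 83.3 ± 16.2 CPM in the 4 groups, and changes of -0.22 ± 0.32 and 0.20 ± 0.19. Cacna1g, the Cav3.1 gene, had 40.3 ± 20.4 to 48.4 ± 13.7 CPM, with changes of 0.25 ± 0.47 and 0.10 ± 0.28, and was at 0 in the empty HA-positive library of animal 17.

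**Figure D4:**
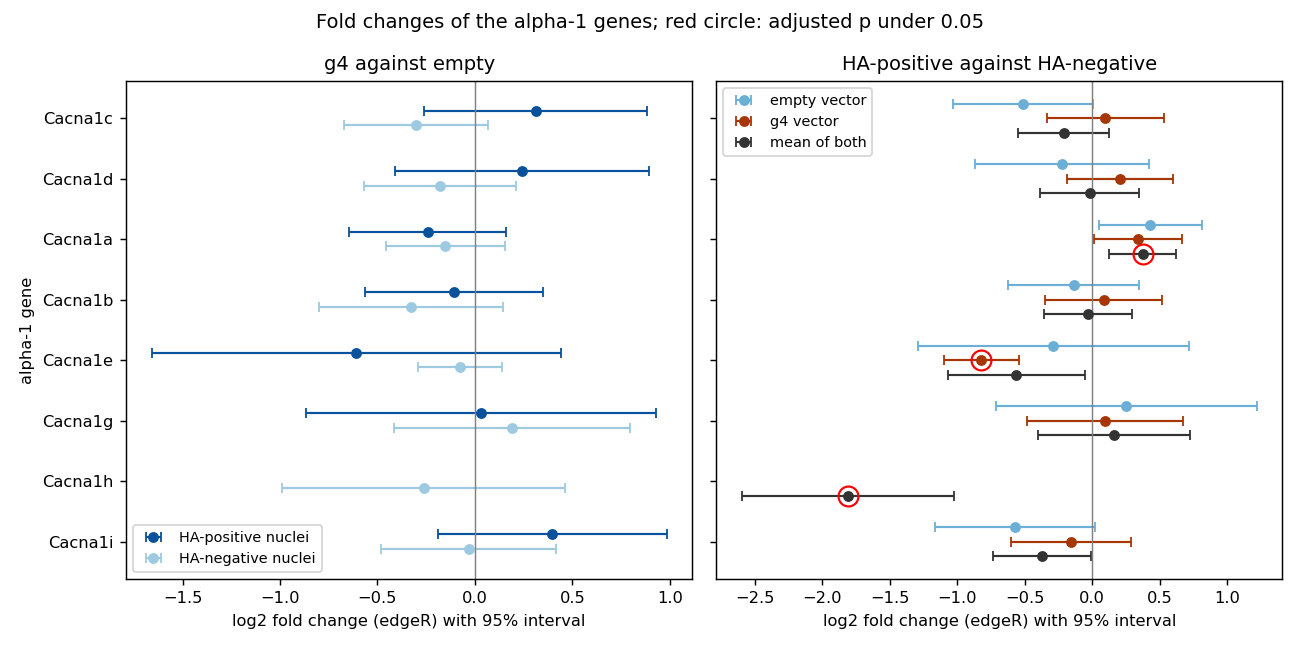
Log2 fold changes of the alpha-1 genes with 95% intervals (edgeR), g4 against empty on the left and HA-positive against HA-negative on the right. Red circles mark an adjusted p under 0.05: Cacna1e with g4 (-0.82), and Cacna1a (0.37) and Cacna1h (-1.81) in the mean of both vectors; Cacna1h has no point where it failed the filter on low counts.

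The second comparison set g4 against empty, that is right against left hemisphere. In HA-positive nuclei 0 of the 7 alpha-1 genes tested were called by edgeR, where 0.0599% of 5011 genes were, and 4 of the 7 had a log2 change above 0, with a median of 0.03 against -0.01 over all genes tested. With the animal as a block 1 gene of 5011 was called and no alpha-1 gene. None of the 7 had an unadjusted p under 0.05, and DESeq2 and limma voom also called 0 of them.

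The genes with a miR-124 match moved in opposite directions in value. Cacna1c had 17.4 to 128 CPM (median 82.3) in empty and 55.0 to 154 CPM (median 104) in g4 HA-positive libraries, with overlapping groups and 4 of 7 animals higher with g4. Its log2 change was 0.31 ± 0.28 (SE, 95% interval -0.26 to 0.88, adjusted p = 0.895). Cacna1e had 149 to 1411 CPM (median 254) in empty and 184 to 413 CPM (median 248) in g4 HA-positive libraries, a change of -0.61 ± 0.48 (95% interval -1.66 to 0.44, adjusted p = 0.867). Without the empty library of animal 22 the change of Cacna1e was 0.17 (adjusted p = 0.891) and its sign turned.

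Of the 6 genes without a match, 5 passed the filter on low counts. Cacna1i had the largest change of these in HA-positive nuclei, 0.40 ± 0.29 (SE, 95% interval -0.19 to 0.98), followed by Cacna1a with -0.24 ± 0.20 and Cacna1d with 0.24 ± 0.32. Cacna1b (-0.11 ± 0.22) and Cacna1g (0.03 ± 0.44) were closer to 0. Cacna1a was lower with g4 in 6 of 7 animals. Cacna1h had 4.59 ± 5.34 CPM with the empty and 10.5 ± 5.14 CPM with the g4 vector (SD, n = 7), higher with g4 in 6 of 7 animals, with an exact permutation p of 0.0589, and of 0.118 without the g4 library of animal 19. Without the filter edgeR gave Cacna1h a change of 1.11 ± 0.89 (SE, adjusted p = 0.656).

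In HA-negative nuclei 0 of the 8 genes were called by edgeR, where 0% of 6262 genes were. The log2 changes ran from -0.33 ± 0.23 (Cacna1b) to 0.19 ± 0.30 (Cacna1g), 7 of 8 were below 0, and their median was -0.17, against -0.0045 over all genes tested. Cacna1c had -0.30 ± 0.18 and Cacna1e -0.08 ± 0.11 (95% interval -0.29 to 0.14). None of the 8 had an unadjusted p under 0.05, against 236 of all 6262 genes, and DESeq2 called 0 of the 8 and 1 gene in all.

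The third comparison asks whether the vector effect differed between the fractions. By edgeR 0 of the 8 genes were called, and 0% of 7197 genes, of which 359 had an unadjusted p under 0.05 and none was an alpha-1 gene. The smallest unadjusted p-values among the 8 were those of Cacna1c (0.0658 by edgeR, change 0.63 ± 0.34, adjusted p = 0.979) and Cacna1h (0.093). The 95% intervals reached a 2-fold difference between the fractions for Cacna1c, Cacna1d, Cacna1e, Cacna1g, Cacna1h and Cacna1i, and stayed within it for Cacna1a and Cacna1b.

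The genes listed as auxiliary subunits, among them gamma genes such as Cacng2, were mostly not called between the fractions. Of 16 genes of this list, 11 were tested with each vector, and 1 rose and 1 fell with empty, 2 rose and 0 fell with g4, that is 2 of 11 with each vector, where 7.01% (empty) and 6.4% (g4) of all genes tested were called. The medians of those tested were 0.05 and -0.17. Cacng2, which encodes stargazin and is best known for its role in AMPA receptor trafficking, rose by 1.19 ± 0.23 with empty (56.6 ± 14.0 CPM in HA-negative, 131 ± 34.1 in HA-positive, adjusted p = 0.000708) and by 1.00 ± 0.28 with g4 (53.3 ± 24.4 and 106.5 ± 48.1 CPM, adjusted p = 0.027). The g4 call was lost under 4 of 14 alternatives, among them leaving out the library of animal 18 with fewer than 10000 genes (adjusted p = 0.0532).

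Cacna2d2, an alpha-2-delta gene, rose by 1.47 ± 0.29 with g4 (32.6 ± 17.4 to 91.3 ± 33.2 CPM, adjusted p = 0.00134) and was called under all 14 alternatives run. With empty it had 0.74 ± 0.34 (adjusted p = 0.229). Cacna2d3, its relative, fell by 1.01 (SE 0.29) with empty (113 ± 29.6 to 55.6 ± 32.5 CPM, adjusted p = 0.0249), which was lost under 5 of 14 alternatives with adjusted p-values of up to 0.142, and had -0.35 ± 0.23 with g4. The most abundant auxiliary genes, Cacnb4 (278 to 346 CPM in the group means) and Cacna2d1 (182 to 228 CPM), were not called. Some alternatives added calls. With empty, Cacnb1 fell by 0.88 by DESeq2 (adjusted p = 0.0325), and Cacng7 rose by 1.35 by edgeR without HA-positive libraries under 10000 genes (adjusted p = 0.0138). With g4, Cacng4 fell by 2.13 by edgeR without the filter (adjusted p = 0.00294).

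**Figure D5:**
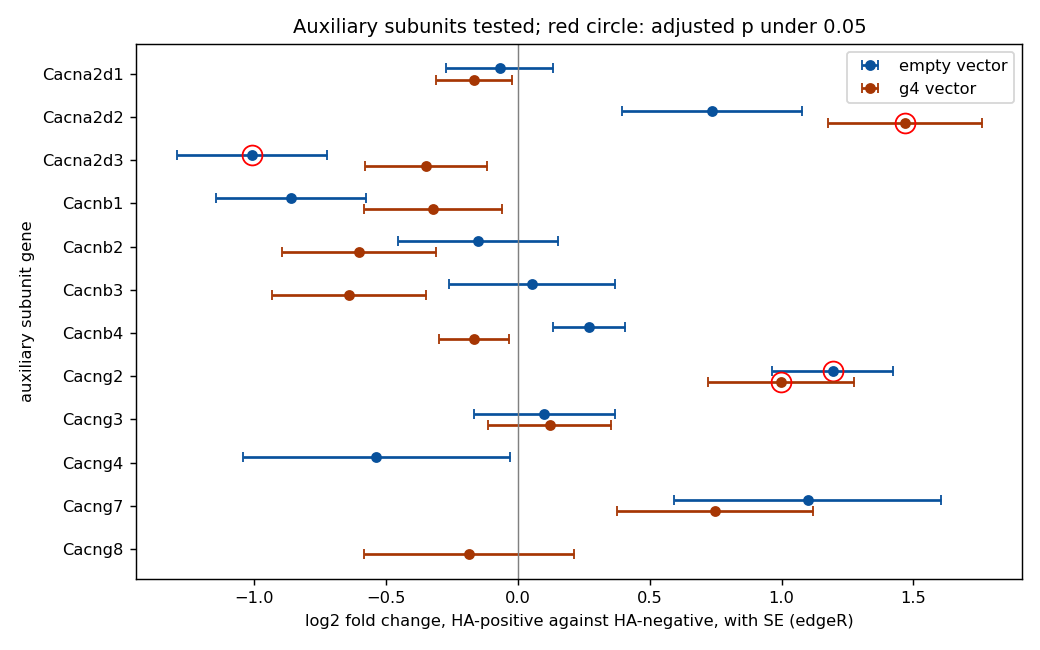
Log2 fold change of HA-positive against HA-negative nuclei (horizontal axis, with SE) for the auxiliary subunit genes that passed the filter on low counts, by vector. Red circles mark an adjusted p under 0.05 by edgeR: Cacng2 with both vectors, Cacna2d2 with g4 and Cacna2d3 with empty.

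Of the 14 active zone partners, which tether Cav2 channels at release sites, all were tested, and 1 rose with empty and 2 with g4, against the same 7.01% and 6.4% of all genes tested. Syt2, a calcium sensor of fast release, rose by 2.40 ± 0.31 (35.1 ± 16.8 to 195 ± 89.7 CPM, adjusted p = 3.96e-06) and by 2.03 ± 0.27 (21.4 ± 7.42 to 89.4 ± 28.4 CPM, adjusted p = 4.76e-06). Syt1, its relative, rose by 0.32 ± 0.09 with g4 (adjusted p = 0.026), a call lost under 6 of 14 alternatives with adjusted p-values of up to 0.121. Syt1 and Snap25 were the most abundant of this list, with 1156 to 1464 and 1316 to 1519 CPM. Some alternatives added calls with the empty vector. Unc13a rose by 0.39 by DESeq2 (adjusted p = 0.0267) and by 0.38 by limma voom (adjusted p = 0.0462), and Syt1 by 0.29 by limma voom (adjusted p = 0.0429).

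Of the 8 calcium-coupled channels, 5 were tested with empty and 6 with g4, and 1 and 2 of them fell, against 7.01% and 6.4% called over all genes tested. Ryr3, a release channel of the endoplasmic reticulum, fell by 2.40 (SE 0.45, adjusted p = 0.000725) with empty, from 93.1 ± 33.4 to 18.2 ± 18.9 CPM, and by 1.61 (SE 0.37, adjusted p = 0.00731) with g4. It failed the filter on low counts between the HA-positive groups, and was also called with both vectors by edgeR without that filter. Itpr1, the inositol trisphosphate receptor, fell by 0.41 (SE 0.11, adjusted p = 0.0142) with g4, a call lost under 3 of 14 alternatives with adjusted p-values of up to 0.0876. Itpr1 and Kcnma1, the large-conductance potassium channel gene, were the most abundant of this list. Of the 14 channel regulators, 8 were tested with each vector and 0 were called. Without the filter edgeR also called falls of the regulator Rem2 with empty (-4.91, adjusted p = 0.0131) and of Ryr1 with empty (-2.25, adjusted p = 0.0448) and g4 (-2.48, adjusted p = 0.00535). Kcnn3 fell by 1.74 with empty by edgeR without HA-positive libraries under 10000 genes (adjusted p = 0.0333). Nalcn, the sodium leak channel related to the alpha-1 genes, had 92.9 to 137 CPM in the group means and was not called. In the comparisons of g4 with empty edgeR called 0 genes of these lists in either fraction. Syt2, with 195 ± 89.7 CPM in empty and 89.4 ± 28.4 CPM in g4 HA-positive nuclei, came to -1.11 ± 0.27 (SE, unadjusted p = 0.000243, adjusted p = 0.162 by edgeR). It was called under 2 alternatives, without the filter on low counts (-1.05, adjusted p = 0.0027 by edgeR) and by DESeq2 (-1.13, adjusted p = 0.0464), and no other gene of these lists was called under any alternative of these comparisons.

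As a description, the 3 genes with the most similar profile over the 28 libraries were found for the 7 alpha-1 genes with a mean of at least 20 CPM, by the Pearson correlation of log2 CPM among 7197 genes. The 28 points share animals and differ in depth and in fraction. For Cacna1e these were Ptk2b (r = 0.805), Sv2c (0.804) and Rhobtb2 (0.803), and the correlations of their deviations from the group means were 0.682, 0.760 and 0.785. For Cacna1a they were Rcan3 (0.725), Ptprs (0.722) and Hunk (0.708), for Cacna1b Xpot (0.618), Slc35e1 (0.577) and Rnu5g (0.575), and for Cacna1c Zrsr1 (0.767), Socs6 (0.767) and Rictor (0.760). For Cacna1g they were Tmed2 (0.82), Pcnx3 (0.805) and Pcdh1 (0.757), and for Cacna1i Ppp1ca (0.71), Egr1 (0.70) and Zfyve28 (0.69). Cacna1d had Krr1 (0.814), Dsel (0.810) and Kdsr (0.809), which were 0.478, 0.376 and 0.386 without the empty HA-positive library of animal 22.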

How the data were processed

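RNA of sorted nuclei was measured in 28 libraries, made from 40 to 2000 pg of RNA per the labels' protocols. The authors deposited raw read counts for each gene, per the labels, with GRCm38 as the genome build per the submitters' processing notes; the sources used here name no aligner, counter or strand setting. Empty cells were read as 0, and 1 entry without a gene name was left out; it stayed out of library sizes. Groups and animal numbers come from the sample titles, tied to table columns by the sample descriptions, since for 3 animals the numbers differ; 0 columns lacked a sample. Each group's 7 libraries are 7 animals, and libraries of 1 group differed beyond sampling noise.

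Tests used the robust quasi-likelihood fit of edgeR 4.0.16 (R 4.3.3), two-sided, with TMM factors and filterByExpr by group, with Benjamini-Hochberg adjustment over all genes tested and calls under 0.05. Cacna1h, below the filter in 3 comparisons, was tested by exact permutation of CPM without pairing by animal (SciPy). Lengths and 3′ UTRs are from GENCODE M21. Order was tested on within-library log2 ratios with 0.5 counts added. Intervals are 95%. The functions were tested on simulated data.

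The members and lists were chosen with earlier results of these data known. Named were the 8 members, every called gene and the 2 most abundant of each channel list (for the channel regulators the most abundant are not reported here), the 3 genes most like each member, and marker lists as totals. Same-numbered libraries come from 1 animal; the correlation of their deviations from the group means was -0.12 to 0.17. Alternatives were RLE factors, no filter, DESeq2 1.42.0, limma 3.58.1 (voom), the animal as a block, leaving out each animal, and leaving out doubted libraries, that of animal 22 with the empty vector added after seeing the data.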

Additional observations from a re-analysis of the deposited data

Results flagged for a closer look

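Levels of the 8 alpha-1 genes were checked in the 4 groups for a single library far from the other 6, and 3 of the 32 sets held one by Dixon's criterion at the 95% level, which chance meets in about 1 in 20. Cacna1e stood at 1411 CPM in the empty HA-positive library of animal 22, above the 149 to 343 CPM of the others. Cacna1a stood at 90.7 CPM, from 33 counts, in the g4 HA-positive library of animal 18, below the 155 to 199.97 CPM of the others. Cacna1c stood at 35.7 CPM, from 11 counts, in the g4 HA-negative library of the same animal, below 87.4 to 116 CPM.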

How the results depend on the processing

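Of 605 values of single alpha-1 genes under an alternative, 550 kept their direction and side of the threshold, 7 gained the call, 5 lost it and 43 changed sign. None of the sign changes passed the test; beyond what the settings' own construction shows, the cause was not tested. No alpha-1 gene was called under any alternative of the vector comparisons. Depth limited Cacna1h most, with 16 to 115 counts per group. Since the number marks the animal, the replicate block is the paired analysis. It changed no call of an alpha-1 gene among those it tested. Cacna1h was not tested with the block in the fraction comparisons of a single vector, and its permutation tests did not pair the libraries of an animal.

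For g4 against empty in HA-positive nuclei, where 3 genes were called, no filter gave 28, DESeq2 11, the replicate block 1, leaving out libraries under 10000 genes 0, leaving out the g4 library of animal 19 gave 5, and leaving out single animals 1 to 4. In HA-negative nuclei DESeq2 called 1 gene, and without a filter the difference between fractions had 3. For the fraction comparison with the empty vector, 661 genes were called without a filter, 251 to 371 without single animals and 388 by the reported fit; of the alpha-1 genes, 1 was called without a filter, 1 by DESeq2, 2 without libraries under 10000 genes, 2 without the empty library of animal 22, and 0 to 1 without single animals. With g4, leaving out single animals gave 218 to 422 genes against 401, and 1 to 2 alpha-1 genes; in the mean of both vectors it gave 1 to 2.

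Sign changes for g4 against empty in HA-positive nuclei were those of Cacna1e (0.15 by DESeq2, 0.076 without libraries under 10000 genes, 0.17 without the empty library of animal 22, and -0.86 to 0.20 without single animals) and Cacna1g (-0.26 to 0.41 without single animals). In HA-negative nuclei Cacna1i had 0.0009 by voom, 0.04 with the replicate block and -0.19 to 0.19 without single animals; these ranges were -0.041 to 0.41 for Cacna1g and -0.14 to 0.010 for Cacna1e. For the difference, Cacna1a had 0.036 by voom, 0.042 without libraries under 10000 genes and -0.20 to 0.034 without single animals. Cacna1e had 0.11 by DESeq2, 0.14 without those libraries, 0.25 without the empty library of animal 22 and -0.79 to 0.27 without single animals. Cacna1g had 0.34 by voom, 0.20 without the library of animal 22 and -0.59 to 0.21 without single animals.

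Between fractions with empty, Cacna1g had -0.027 by voom, -0.10 without the library of animal 22 and -0.18 to 0.55 without single animals. With g4, leaving out single animals gave -0.037 to 0.19 for Cacna1b and -0.032 to 0.26 for Cacna1g. In the mean of both, Cacna1b had 0.054 and Cacna1d 0.0005 without libraries under 10000 genes, Cacna1d had 0.083 and Cacna1g -0.012 without the library of animal 22, and leaving out single animals gave -0.14 to 0.027 (Cacna1b), -0.15 to 0.15 (Cacna1d) and -0.069 to 0.30 (Cacna1g).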

Other observations

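In the mean of both fraction effects over all 28 libraries, which was added after the values had been seen and in which edgeR called 13.7% of the genes tested, further genes of the channel lists passed the test. The fit took the 28 libraries as independent, although they come from 7 animals. Of the auxiliary subunits, 2 rose and 3 fell of 12 tested: beside Cacng2, Cacna2d2 and Cacna2d3, the beta subunit gene Cacnb1 fell by 0.60 (SE 0.20, adjusted p = 0.0294) and Cacng4 fell by 1.34 (SE 0.37, adjusted p = 0.00803). Of the calcium-coupled channels, 4 of 7 tested fell: beside Ryr3 and Itpr1, Ryr1, known as the release channel of skeletal muscle, fell by 2.34 (SE 0.47, adjusted p = 0.000211) and Kcnn3, a small-conductance potassium channel gene, fell by 0.98 (SE 0.33, adjusted p = 0.0381). Cacng4, Ryr1, Ryr3 and Kcnn3 failed the filter on low counts between the HA-positive groups and passed it between the HA-negative ones, which favours a fall. Few counts lay behind the HA-positive groups (empty and g4), with 14 and 16 for Ryr1, 46 and 27 for Cacng4, and 40 and 82 for Kcnn3. Prkaca, the catalytic subunit of protein kinase A, was the only one of 8 tested channel regulators called and rose by 0.68 ± 0.21 (SE, adjusted p = 0.0191).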
